A study of Homo sapiens with 7 samples.

Results

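The mitochondrial ribosomal protein genes were described in 4 replicate samples of HCT116 cells treated with bafilomycin A1, as the genes whose array name was MRPL or MRPS followed by a number. This rule found 76 of the 36337 gene names on the array, 47 of the large subunit (MRPL) and 29 of the small subunit (MRPS). HCT116 cells come from a human colorectal carcinoma and are near-diploid, and the derivative used expresses histone H2B joined to GFP. Bafilomycin A1 inhibits the vacuolar proton pump and was given at 10 nM for 30 h, in a study that set responses to single stresses beside those of aneuploid cells. All 4 samples carried the same H2B-GFP transgene and received the same treatment. The 3 untreated samples of the line were not analysed here, so the values give the levels in treated cells and their error, with no change on treatment and no p-value. The labels do not say whether the 4 samples came from separate cultures; the methods state in general that independent biological replicates were used where statistics were applied, without naming these arrays.

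Mitochondria keep a ribosome of their own, which makes the few membrane proteins of oxidative phosphorylation that mitochondrial DNA encodes. Its rRNAs come from mitochondrial DNA, but all of its proteins are encoded in the nucleus, translated on cytosolic ribosomes and imported. Some of these proteins descend from bacterial ribosomal proteins and others are specific to mitochondria, added while the rRNAs shrank. The symbols are older than the structures. MRPS30 and MRPS18A, named for the small subunit, sit in the large subunit, and MRPS36 is now assigned to the alpha-ketoglutarate dehydrogenase complex. The comparison of MRPL with MRPS below follows the symbols.

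Levels are the log2 background-subtracted Cy3 signal minus the array's median over probes that are not controls, with the median taken over the probes of a gene. Different probes bind with different strength, so levels of different genes have no common scale and only differences between arrays were read. A probe well above background on every array made its gene a detected gene, as was the case for 19083 gene names (52.5%). No member spot was saturated. The arrays shared 1 slide and 1 scan, so no batch could be examined. All 5 epithelial markers (EPCAM, CDH1, KRT8, KRT18 and KRT19) were detected. So were 4 of 8 markers of blood, endothelium and fibroblasts (PTPRC, CD3E, VWF and COL1A1), with COL1A1 at 2.62 to 3.26. Of the others, CD14 was well above background on 2 arrays, DCN on 1, and PECAM1 and COL3A1 on none. The scanner software marked 2249 spots of replicate 3 as outlying, beside 514, 725 and 527 of replicates 1, 2 and 4, and these were left out.

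Of the 76 members, 73 were detected on all 4 arrays, 46 of 47 MRPL and 27 of 29 MRPS genes. The 3 that were not are MRPL30, MRPS11 and MRPS18C. Each of them had a bright probe whose single spot was marked on 1 array as an outlier of the local background, and was therefore left out there. For MRPS11, a homologue of a bacterial small-subunit protein, this was the spot on replicate 1, and its levels on replicates 2 to 4 were 6.35, 6.67 and 6.33. For MRPL30 and MRPS18C it was the spot on replicate 3. With outlying spots kept, all 47 MRPL and all 29 MRPS genes were detected. The brighter MRPL30 probe then read 5.25, 5.38, 5.78 and 5.37 on replicates 1 to 4, and the brighter MRPS18C probe 6.03, 6.15, 6.52 and 6.34. For both probes replicate 3 was the highest array. The gene values, medians that include the dimmer probes, were -6.60 and -1.51 on replicate 3 with the spot left out and -0.41 and 2.51 with it kept. With the spot kept, replicate 3 was still the lowest array for the MRPL30 gene value and was the highest for that of MRPS18C.

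The members were measured by 97 probes, of which 90 were well above background on all 4 arrays and 3 on none. Of the 76 genes, 57 had 1 probe, 19 had several and 2 of these had 3. Probes of 1 gene could behave unlike each other. MRPS27, a pentatricopeptide repeat protein of the small subunit, had a probe at chr5:71515797-71515856 (GRCh37, minus strand) with levels of 6.38, 6.42, 6.91 and 6.47, and a second probe at chr5:71601767-71601826, designed to another transcript, that was well above background on none of the arrays. The second probe read -5.28, -3.03, -6.32 and -7.36, and its noise entered the gene's median, which was 0.55, 1.69, 0.30 and -0.44. The SD of MRPS27 was accordingly 0.89 with both probes and 0.25 with the detected probe alone. Both MRPS17 probes were well above background on all 4 arrays, 1 at chr7:56022855-56022914 with a mean level of 5.88 ± 0.14 (SD, n = 4) and the other, designed to a different transcript, at chr7:55954984-55955043 with a mean of -1.03 ± 0.37 (SD, n = 4).

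Most members were steady between the 4 arrays. The median SD was 0.14 for the 46 detected MRPL genes and 0.16 for the 27 detected MRPS genes, beside 0.21 over all 19083 detected genes. The highest and the lowest array lay more than 1.4-fold apart, the fold used in the study's methods, in 15 of 73 members, which were 11 MRPL (23.9%) and 4 MRPS genes (14.8%), beside 46.4% of all detected genes. In 24 members the span was at most 1.2-fold. Brightness moved with these shares. Of the 56 members with a mean level of 5 or more, 5 (8.93%) spanned more than 1.4-fold and the median SD was 0.13, beside 24.7% and 0.16 over the 3492 detected genes at such levels. The part of brightness in the smaller spread of the members was not tested. Replicate 3 set much of the spread: without it, the median SD was 0.077 for MRPL and 0.076 for MRPS genes, and only MRPS27 still spanned more than 1.4-fold. Without replicate 2, the number spanning more than 1.4-fold was 9.

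**Figure D1:**
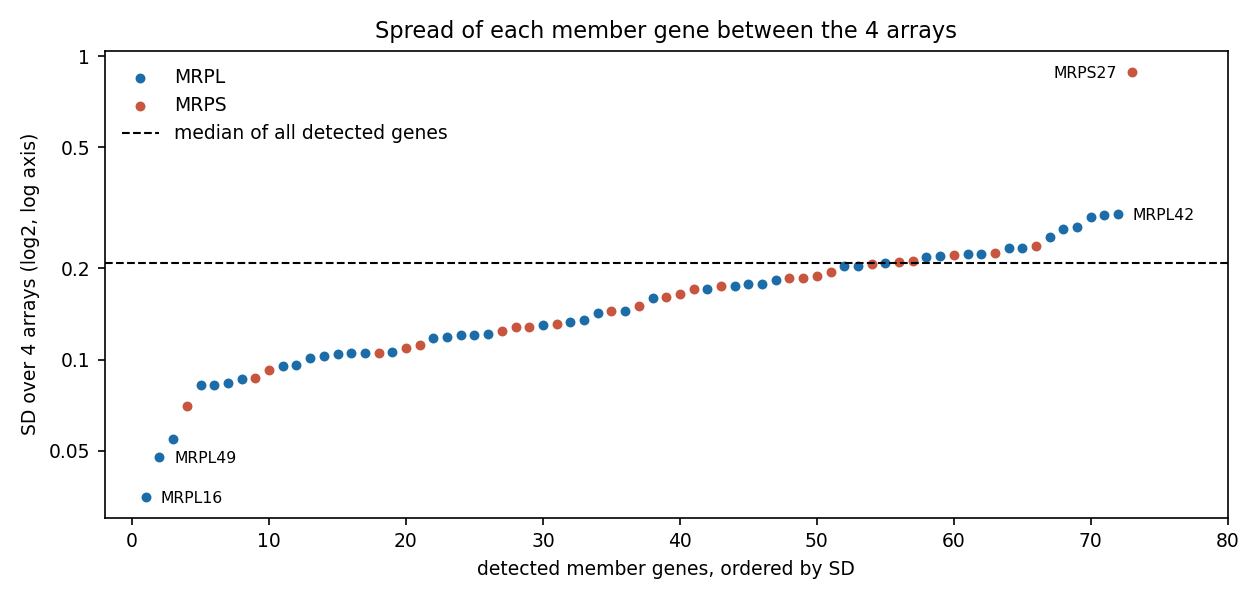
SD of the log2 level over the 4 arrays (vertical log axis) for the 73 detected member genes, ordered from the smallest to the largest SD (horizontal axis), with MRPL genes in blue and MRPS genes in red. The dashed line is the median SD of all detected genes, 0.21; MRPL16 lies lowest at 0.035 and MRPS27 highest at 0.89.

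The 5 steadiest members were MRPL16, MRPL49, MRPL40, MRPS34 and MRPL23. MRPL16, a conserved protein close to the peptidyl transferase centre, read 6.12, 6.16, 6.14 and 6.08, a span of 1.06-fold. MRPL49, which is specific to mitochondria, read 6.82, 6.92, 6.87 and 6.92. The levels of MRPL40, of the central protuberance, were 4.93, 4.93, 5.03 and 4.90. In these genes no array stood off by more than 1.2-fold. MRPS34, a mitochondria-specific protein of the small subunit, read 5.91, 5.91, 5.76 and 5.85, and MRPL23, at the polypeptide exit, 5.48, 5.52, 5.64 and 5.46. The 5 largest SDs were those of MRPS27, described above, and of MRPL42, MRPL2, MRPL46 and MRPL1. MRPL42, specific to mitochondria, read 4.59, 4.93, 5.28 and 4.72. MRPL2, a universally conserved protein near the catalytic centre, read 3.91, 3.82, 4.50 and 4.06. MRPL1, a conserved protein of the stalk that lines the path of the leaving tRNA, read 1.16, 1.43, 1.81 and 1.33. In these genes replicate 3 was the highest. MRPL46, of the central protuberance, went the other way, with 4.73, 4.98, 4.29 and 4.54.

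The members tended to be highest on the same array. Of the 73 detected members, 56 were highest on replicate 3, 38 of 46 MRPL genes (82.6%) and 18 of 27 MRPS genes (66.7%), beside 48.5% of all detected genes. Among members at a level of 5 or more the share was 83.9%, beside 72.9% of all genes at such levels. These counts use gene levels, which include dimmer probes. For MRPS5, MRPS16, MRPS17, MRPS18B, MRPS27, MRPL10 and MRPL37 the brighter probe was highest on replicate 3 although the gene level was not. For MRPL12, MRPL38 and MRPL43 neither was. The shares by gene level therefore do not set the subunits apart. Replicate 2 was the highest array for 13 members, replicate 1 for 3 and replicate 4 for 1, while 10 were lowest on replicate 3, beside 23.2% of all detected genes. After normexp background correction and quantile normalization, an alternative that forces the arrays to 1 distribution, replicate 3 was the highest array for 27 of the 73 members, replicate 1 for 21, replicate 2 for 13 and replicate 4 for 12. Over all detected genes the shares highest on replicates 1 to 4 were then 25.1%, 20.9%, 37.9% and 16.1%. With the processed signal minus the array's 75th percentile, 51 members were highest on replicate 3. By Dixon's ratio 1 array lay apart from the rest in 5 of 73 members (MRPL14, MRPL17, MRPL19, MRPS21 and MRPS24), beside 8.48% of all detected genes.

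**Figure D2:**
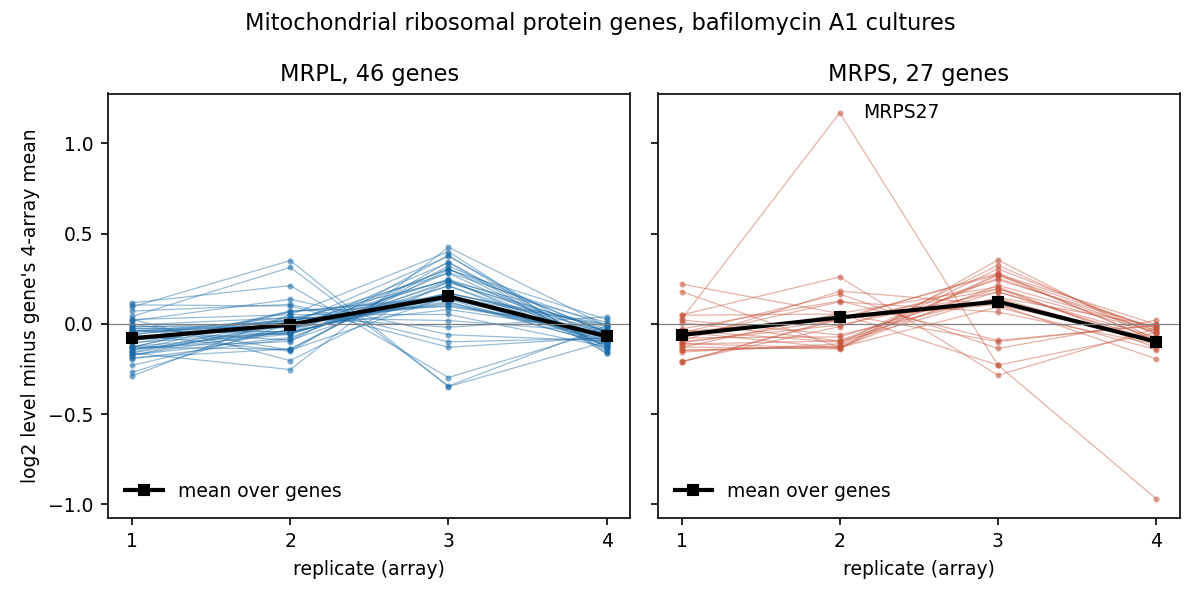
Log2 level of each detected member gene minus its own mean over the 4 arrays (vertical axis) on each array (horizontal axis), for 46 MRPL genes (left) and 27 MRPS genes (right); thin lines join the values of 1 gene and black squares are the mean over genes. Most genes lie above their own mean on replicate 3, and MRPS27, whose second probe was not above background, has the widest swing.

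Both subunits moved together from array to array. The mean deviation of the MRPL genes from their own means was -0.08, -0.003, 0.15 and -0.07 on replicates 1 to 4. That of the MRPS genes was -0.06, 0.04, 0.12 and -0.10. On replicate 3 both lay above their 4-array mean with the array median subtracted and with the processed signal (0.08 for MRPL and 0.07 for MRPS), but not after quantile normalization (-0.003 and -0.009). The difference MRPL minus MRPS ranged over 0.069 between arrays, and over 0.020 when the second MRPS27 probe, the only probe of a detected member that was not well above background on all 4 arrays, was left out. Beside them, the mean deviations of 77 detected cytosolic ribosomal protein genes were -0.06, -0.009, 0.07 and -0.001, those of 36 complex I (NDUF) genes -0.14, -0.08, 0.17 and 0.05, and those of all detected genes -0.02, 0.03, 0.07 and -0.09. Replicate 3 was thus the highest array for each of these sets with the array median subtracted, whereas after quantile normalization only the complex I mean stayed above 0.02 there, at 0.07.

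**Figure D3:**
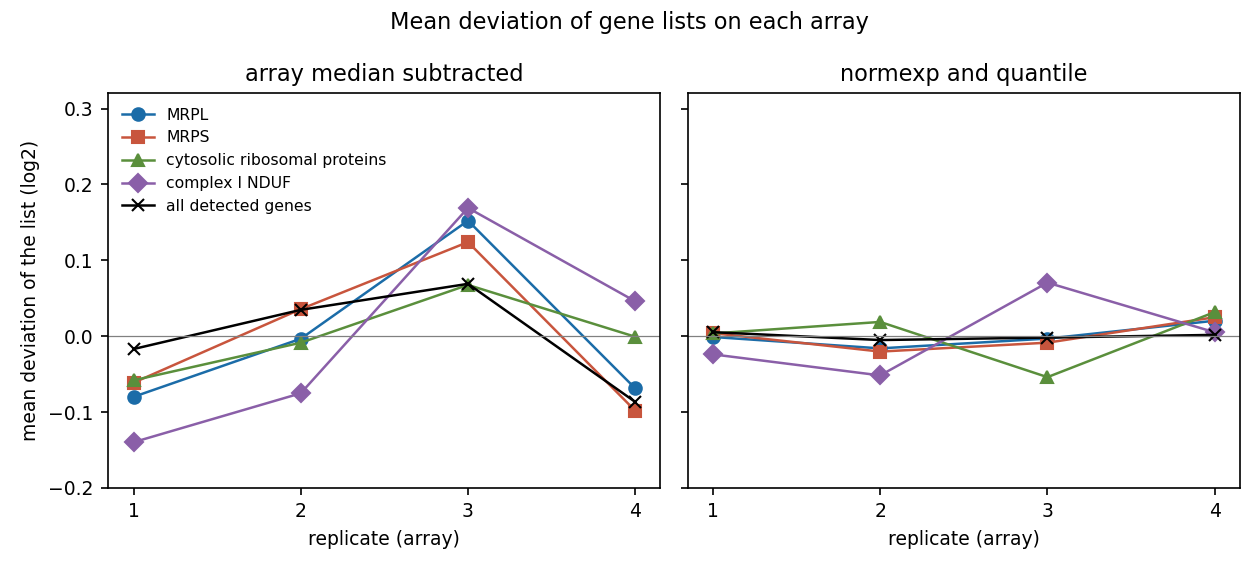
Mean deviation of the detected genes of each list from their own 4-array means (vertical axis, log2) on each array (horizontal axis), with the array median subtracted (left) and after normexp background correction and quantile normalization (right). On the left all lists peak on replicate 3 and MRPL and MRPS lie close together; on the right both stay within 0.025 of 0.

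Grouped by descent, the 43 detected conserved members had a median SD of 0.13, with 5 (11.6%) spanning more than 1.4-fold. The 29 detected mitochondria-specific members had a median SD of 0.17, with 10 (34.5%) spanning more than 1.4-fold. The share over all detected genes was 46.4%. In MRPL the median SD was 0.12 for conserved and 0.18 for specific genes. There, 3 of 29 conserved (10.3%) and 8 of 17 specific genes (47.1%) spanned more than 1.4-fold. In MRPS the median SDs were 0.17 and 0.15, and 2 of 14 (14.3%) and 2 of 12 (16.7%) spanned more than 1.4-fold. The specific group was also dimmer, with a median level of 5.66 beside 6.22. The part of brightness in these shares was not tested. Of the conserved group 36 (83.7%) were highest on replicate 3, and of the specific group 19 (65.5%). The share was 48.5% over all detected genes and 72.9% over those at a level of 5 or more. These counts also rest on gene levels, which include dimmer probes. MRPS36 was put in neither group.

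Of the stalk proteins, which recruit translation factors to the large subunit, MRPL11 read 6.56, 6.70, 6.82 and 6.59. MRPL10 read 6.57, 6.61, 6.40 and 6.42. MRPL12, which has also been found to bind the mitochondrial RNA polymerase POLRMT, read 6.33, 6.32, 6.09 and 6.15. By gene level, MRPL10 and MRPL12 were lowest on replicate 3, where MRPL11 was highest, and none of these genes spanned more than 1.4-fold. The MRPL10 level is the median of 2 probes that part on replicate 3, and the brighter was highest there, at 7.10, 7.15, 7.31 and 6.98. POLRMT itself read 6.72, 6.73, 6.47 and 6.44.

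Around the peptidyl transferase centre, 4 of 5 members (MRPL2, MRPL3, MRPL4, MRPL16 and MRPL27) were highest on replicate 3, the exception being MRPL16. MRPL3 read 5.55, 5.62, 5.88 and 5.49. All 5 members at the polypeptide exit (MRPL22, MRPL23, MRPL24, MRPL45 and MRPL47) were highest on replicate 3, and none spanned more than 1.4-fold. Replicate 3 was the highest array for 76.7% of all detected members and 48.5% of all detected genes. These small counts therefore do not set either site apart from the other members. MRPL45, which anchors the ribosome to the inner membrane, read 6.57, 6.77, 6.79 and 6.66, and MRPL47 6.90, 7.12, 7.20 and 6.99. In the central protuberance, 3 of 5 members (MRPL38, MRPL46 and MRPL48) spanned more than 1.4-fold, beside 46.4% of all detected genes. They did not share a direction. MRPL38 and MRPL46 were lowest on replicate 3, with MRPL38 at 2.29, 2.56, 1.90 and 2.24, while MRPL48 was highest there, at 5.22, 5.13, 5.63 and 5.15. Elsewhere in the large subunit, MRPL41 read 8.19, 8.17, 8.44 and 8.11, MRPL55 6.91, 6.89, 7.08 and 6.87, and MRPL44, which has a fold like that of RNase III, 5.12, 5.23, 5.60 and 5.10.

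In the small subunit, 11 of 12 conserved core members were detected and none of them spanned more than 1.4-fold. MRPS12, at the decoding site, read 6.40, 6.37, 6.78 and 6.48. MRPS7, of the head, read 4.50, 4.65, 4.43 and 4.52. MRPS24, at the mRNA entry, read 8.35, 8.35, 8.62 and 8.38, and its replicate 3 lay apart from the other arrays. The gene level of MRPS16 was 5.98, 5.81, 5.53 and 5.71, lowest on replicate 3, although the brighter of its 2 probes was highest there. Of the mitochondria-specific proteins, MRPS22, in which inherited mutations cause mitochondrial disease, read 6.21, 6.40, 6.55 and 6.21. MRPS28, of the conserved group, read 6.12, 6.17, 6.60 and 6.22. The S18 family has members in both subunits. MRPS18A, of the large subunit, read 5.79, 5.69, 5.96 and 5.69, and MRPS18B, of the small subunit, 5.27, 5.49, 5.19 and 5.34. MRPS30 read 3.75, 3.88, 4.05 and 3.75, and MRPS36 6.31, 6.33, 6.67 and 6.37. By gene level, replicate 3 was thus the highest array for MRPS18A and the lowest for MRPS18B, each by less than 1.4-fold. The MRPS18B level is the median of 2 probes that part on replicate 3. Its brighter probe was highest there, at 7.41, 7.64, 7.74 and 7.55, so the gene levels do not set these genes apart.

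For 6 members 1 probe was printed as 10 spots, which gives the spread of single spots within an array. The pooled SD of the spots within an array was 0.18 for MRPL19, 0.17 for MRPL22, 0.17 for MRPL32, 0.14 for MRPS6, 0.22 for MRPS15 and 0.18 for MRPS23. The SD of the spot means between arrays was 0.25, 0.18, 0.15, 0.21, 0.15 and 0.23 for the same genes. Each mean rests on 8 to 10 spots, so its error within an array is smaller than the SD of single spots. The SDs within and between arrays are therefore not directly comparable.

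Where 2 detected probes lay on 1 transcript, their difference moved with the array. These pairs were examined after the values had been seen. The first 30 bases of both probes of the 4 pairs with the widest swing are shown so that each value below can be tied to its stretch of the transcript (GRCh37, capitals unused).
MRPS16 upstream, from base 2036: gtatcttttccttcctaccttgatgccagt
MRPS16 downstream, from base 2479: gcagtgaactgtgattgttccactacagtc
MRPS18B upstream, from base 283: ttgtcctcagttcccatttctccttataag
MRPS18B downstream, from base 1450: gggctgggctaaacattgttgccgtttcat
MRPL10 upstream, from base 610: caaggagatggtaaggatcttaaggactgt
MRPL10 downstream, from base 1350: gagtgctgtacgtgtattagttcctttact
MRPL37 upstream, from base 988: tcaaccagatcagctgcgggccaagatgat
MRPL37 downstream, from base 1302: agacattcagaaagtttttagctctatatt

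The upstream MRPS16 probe (chr10:75009139-75009198) read 3.94, 3.81, 2.96 and 3.46, and the downstream probe (chr10:75008696-75008755) 8.01, 7.82, 8.10 and 7.96. Replicate 3 was thus the lowest array for the upstream probe and the highest for the downstream one. The same held for MRPS18B, whose upstream probe read 3.14, 3.34, 2.64 and 3.14 and whose downstream probe read 7.41, 7.64, 7.74 and 7.55. It held for MRPL10, at 6.04, 6.07, 5.49 and 5.86 upstream and 7.10, 7.15, 7.31 and 6.98 downstream, and for MRPL37, at 5.76, 5.97, 5.42 and 5.58 upstream and 6.31, 6.34, 6.50 and 6.27 downstream. The gene level of these genes is the median of such opposed probes and so hides both.

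Over all 11 member pairs with starts at least 50 bases apart, downstream minus upstream was highest on replicate 3 in 8, beside 62.1% of the 2842 such pairs on the whole array. The median deviation of this difference on replicates 1 to 4 was -0.12, -0.15, 0.17 and 0.01 for member pairs and -0.09, -0.11, 0.20 and -0.002 for all pairs. The downstream probe was highest on replicate 3 in 10 of 11 member pairs and the upstream probe in 5 of 11, beside 70.8% and 35.4% of all pairs. After quantile normalization the difference was highest on replicate 3 in 9 of 11 member pairs and 59.0% of all pairs. A shift of a whole array cancels in this difference under any scaling, so these counts do not bear on such shifts. The exceptions among the members were MRPL52, where the difference was lowest on replicate 3, MRPL19 and MRPS36. Position went along with brightness in these pairs. With the array median subtracted, every member pair with the difference highest on replicate 3 had the brighter probe downstream. The downstream probe was the dimmer one in MRPL52 (mean level 3.25 against 6.58) and MRPL19 (1.69 against 6.13). In MRPS36 it was the brighter one (7.86 against 4.98). GC content of the probe moved with the arrays as well: over the 90 detected member probes its Spearman correlation with the deviation was 0.42 on replicate 1 and -0.37 on replicate 3, and over all 24633 detected probes 0.44 and -0.44. These probes share arrays and labelling and are not independent. The part of transcript position, probe brightness, GC content or RNA quality in the differences between arrays was not tested.

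**Figure D4:**
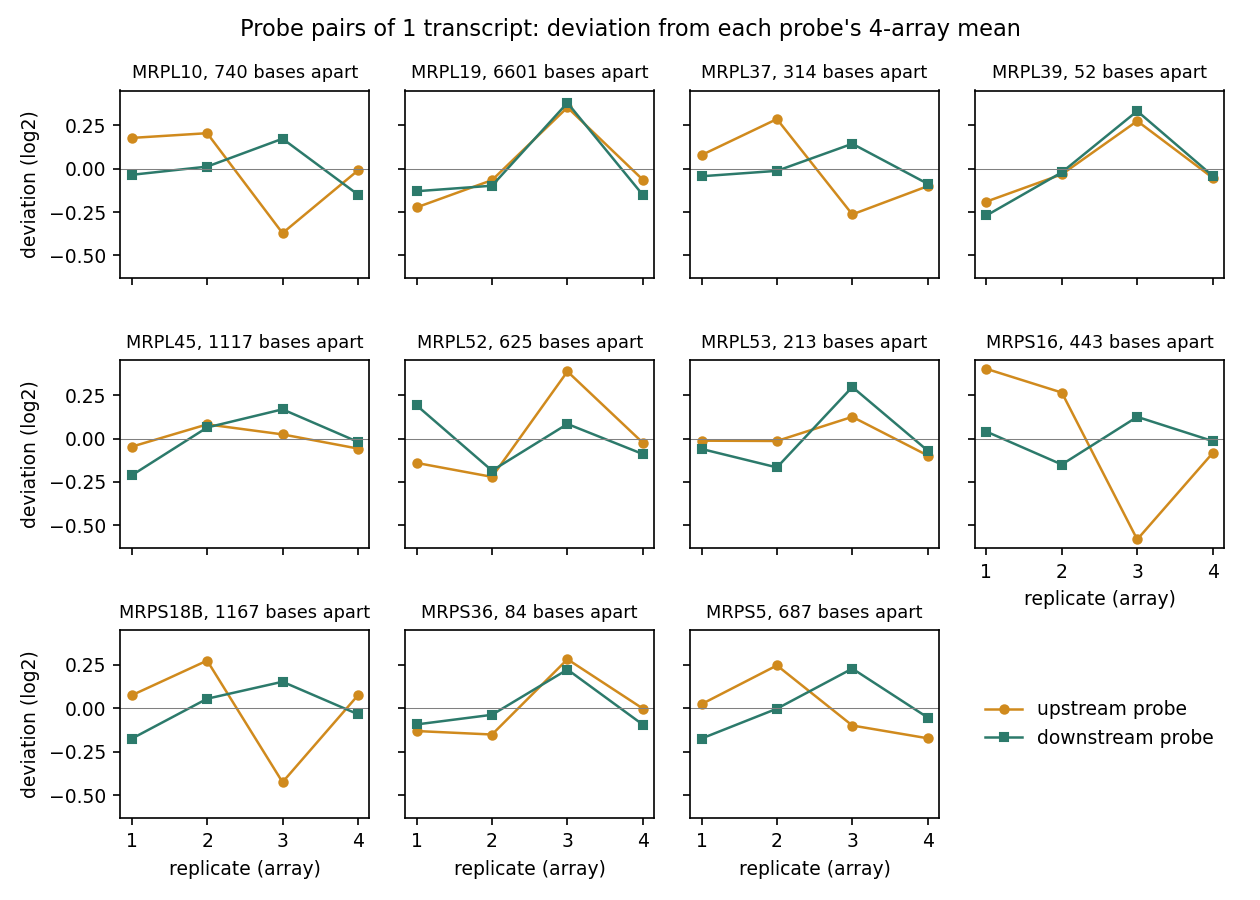
Deviation of each probe from its own 4-array mean (vertical axis, log2) on each array (horizontal axis) for the 11 member genes with a pair of detected probes on 1 transcript, the upstream probe in orange and the downstream probe in green. In MRPS16, MRPS18B, MRPL10 and MRPL37 the probes part on replicate 3, while in MRPL19, MRPL39 and MRPS36 they run together.

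MRPL12 offers the opposite case, a pair of probes that overlap by 48 bases. Their first 30 bases are shown with the shared stretch in capitals.
MRPL12, from base 530: cctgaccgaggcGAAGCCCGTGGACAAAGT
MRPL12, from base 542: GAAGCCCGTGGACAAAGTGAAGCTGATCAA
The first (chr17:79673989-79674048) read 6.38, 6.34, 6.05 and 6.14, and the second (chr17:79674001-79674060) 6.28, 6.31, 6.13 and 6.16. Both were lowest on replicate 3.

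What the members share in sequence, beyond their names, was described in RefSeq promoter windows (GRCh38.p14), which run from 250 bases before to 50 bases after a gene's start. An entry was found for 67 of the 76 members, 40 MRPL and 27 MRPS genes; MRPL2, MRPL10, MRPL13, MRPL15, MRPL21, MRPL23, MRPL35, MRPS28 and MRPS36 had none. Each motif was searched on both strands, over all starts listed for a gene. The ETS core CCGGAAG, to which GABPA binds, was found in 29 members (43.3%), beside 16.5% of the 15843 protein-coding genes with an entry. AAGATGGCG, a YY1 motif whose first letters can be the last of an ETS core, was found in 13 members (19.4%), beside 3.21%. The NRF1 motif GCGCANGCG was found in 13 (19.4%, beside 12.5%), the GC box GGGCGG in 41 (61.2%, beside 64.3%) and the CCAAT box in 23 (34.3%, beside 42.1%). The TATA motif TATAAA was in 3 (4.48%, beside 12.4%), the E-box CACGTG in 9 (13.4%, beside 10.9%), TCACGTGA, the core of a motif of lysosomal genes that contains an E-box, in 3 (4.48%, beside 1.65%), and TGACGTCA in 1 (1.49%, beside 3.00%). ETS and YY1 matches occurred in both subunits, in 17 MRPL and 12 MRPS genes and in 8 and 5.

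**Figure D5:**
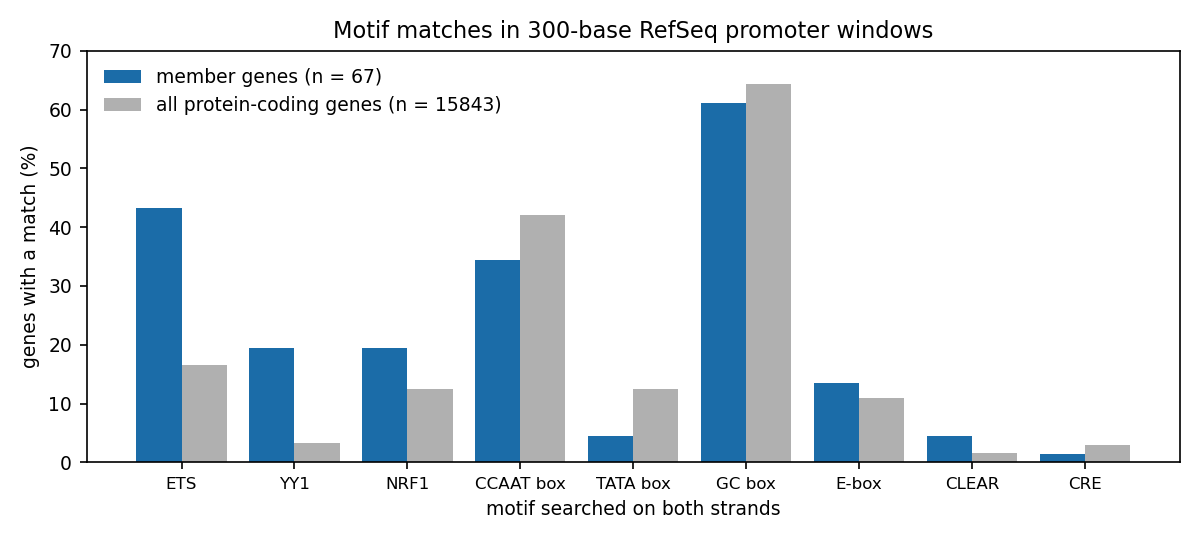
Share of genes with at least 1 match of a motif (vertical axis, percent) in RefSeq promoter windows, for 67 member genes (blue) and 15843 protein-coding genes (grey). ETS stands at 43.3% beside 16.5% and YY1 at 19.4% beside 3.21%; a match is a run of letters and not a bound site.

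In 10 of the 13 the YY1 motif lay on the strand of the gene and after its start, as it did in 315 of the 508 genes of all kinds that hold it (62.0%). These 10 are shown from the motif nearest to the start to the farthest, 6 to 35 bases after it, with the motif in capitals.
MRPL38: gccggagggAAGATGGCGgcgccctggtgg
MRPL42: gattgaaacAAGATGGCGggttcgtggtga
MRPL46: ggagaacgaAAGATGGCGgcgcccgtaagg
MRPS10: gggaccggcAAGATGGCGgcgcggacagcg
MRPS18A: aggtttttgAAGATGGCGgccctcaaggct
MRPS30: tcgcgggcaAAGATGGCGgcggccaggtgt
MRPS24: gcttggcccAAGATGGCGgcctccgtgtgc
MRPL50: atctcatcgAAGATGGCGgcgcgatctgtg
MRPS18B: gcgtacgtcAAGATGGCGgcgtctgtatta
MRPL22: ggagggcgaAAGATGGCGgcggca

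The stretch shown for MRPS30 lies at chr5:44808951-44808980 (plus strand) and that for MRPL46 at chr15:88467360-88467389 (minus strand, both GRCh38.p14). In MRPL32 and MRPL36 the motif lay on the opposite strand, and in MRPL52 it lay before the start. By gene level, MRPL38, MRPL46 and MRPS18B of these 10 genes were lowest on replicate 3 and the other 7 highest. Over all detected members 76.7% were highest on replicate 3, and over all detected genes 48.5%. The brighter of the 2 MRPS18B probes was also highest there.

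Members often faced another gene. A protein-coding gene started on the opposite strand within 1000 bases, pointing away, for 19 of 67 members (28.4%), beside 12.3% of all protein-coding genes with an entry. MRPL46 and MRPS11 faced each other, with starts 320 bases apart. MRPL46 was lowest on replicate 3, whereas MRPS11 was highest there among the arrays on which it was measured. The other 17 faced genes that are not members, with starts 45 to 990 bases apart: EME1 (MRPL27), FAU (MRPL49), PIERCE1 (MRPS2), MITD1 (MRPL30), PTCD2 (MRPS27), CYB5RL (MRPL37), HELQ (MRPS18C), SARS2 (MRPS12), PSMA2 (MRPL32), TCP1 (MRPL18), ZNF189 (MRPL50), TMEM63B (MRPL14), GGA3 (MRPS7), PPP1R10 (MRPS18B), HIRA (MRPL40), NCAPD2 (MRPL51) and APBA3 (MRPL54), from the nearest to the farthest.

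Other genes of mitochondrial translation were detected nearly without exception. All 7 mitoribosomal proteins that carry other symbols were detected, none spanned more than 1.4-fold and 6 of 7 were highest on replicate 3. Replicate 3 was the highest array for 76.7% of the detected members and 48.5% of all detected genes. DAP3, a GTP-binding protein of the small subunit, read 8.65, 8.76, 8.86 and 8.66. ICT1, a peptidyl-tRNA hydrolase built into the large subunit, read 7.19, 7.37, 7.58 and 7.28. All 11 translation factors were detected, and 3 of them (27.3%) spanned more than 1.4-fold, beside 46.4% of all detected genes. These were GFM1 (14.6-fold), TSFM (2.70-fold) and C12orf65 (1.47-fold), each highest on replicate 3. GFM1 read 0.11, 0.65, 3.98 and 0.44 and TSFM 5.01, 5.18, 6.38 and 4.95, each a median over 2 probes. Whether a probe left out on replicate 3 set these 2 spans was not tested. TUFM, the elongation factor that brings aminoacyl-tRNA, read 8.33, 8.31, 8.29 and 8.18. All 16 assembly factors were detected and 3 (18.8%) spanned more than 1.4-fold.

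Of 11 genes that act in mitochondrial transcription or its control, 10 were detected. The exception was PPARGC1A, a coactivator of mitochondrial biogenesis, which was well above background on none of the arrays. TFAM, which packages mitochondrial DNA, read 2.56, 2.59, 2.90 and 2.61. GABPA, the ETS factor named above, read 2.40, 2.91, 3.46 and 2.94, a span of 2.08-fold, with replicate 3 the highest. NRF1 read 0.10, 0.61, 0.31 and -0.13, a span of 1.67-fold, with replicate 2 the highest. Both spans exceeded 1.4-fold, as did those of 4 of the 10 detected genes of this list, beside 46.4% of all detected genes.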

How the data were processed

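Total RNA of 4 bafilomycin A1 samples was labelled with Cy3 from 100 ng and hybridised to single-colour Agilent arrays. The authors deposited 1 scanner file per array, whose signals are intensity values written by Agilent Feature Extraction 10.7.3.1, background-subtracted and not normalized between arrays; flags in the deposited files mark spots well above background, saturated or outlying. Per the labels the medium held 10% serum. Probe coordinates are GRCh37.

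Control and outlying spots were left out, spots of a probe averaged, signals above 0 log2 transformed, the array median subtracted and the median over probes taken. Detection of a probe on an array required the flag for well above background on over 50% of its spots. With 1 group there was no test: SDs, spans over 1.4-fold and Dixon's ratio (95%; chance gives about 5%) were given, and the number of arrays limits the precision. The SD per gene and Dixon's ratio were tested on simulated data with known answers. Members and lists were chosen with earlier results of these data known. Named genes are members not detected, the 5 largest and 5 smallest SDs, members with 1 array apart, members with unlike probes and members chosen by role. Alternatives were the processed signal minus the 75th percentile, normexp (offset 50, limma 3.58.1) with quantile normalization, other detection rules, other probe filters, outlying spots kept and leaving out each array; added after seeing the data were leaving out arrays for detection counts, list means and probe pairs under other normalizations, and the genes at a level of 5 or more. The untreated samples were not analysed here. Python 3.11.15, numpy 2.4.6, pandas 2.3.3, scipy 1.17.1, matplotlib 3.10.9 and R 4.3.3 were used.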

Additional observations from a re-analysis of the deposited data

Results flagged for a closer look

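Dixon's ratio set 1 array apart in 7 of 78 values examined, members not detected on all 4 arrays included. Chance marks about 1 in 20. Of the 73 detected members, 5 were among them, beside 8.48% of all detected genes. MRPL14, a conserved protein at the face that meets the small subunit, read 5.67 on replicate 3 and 5.45 to 5.48 on the others. MRPL19, of the same face, read 2.07 on replicate 3 and 1.53 to 1.59 on the others. This gene value is the median of 3 probes and follows the dimmer ones. The brightest MRPL19 probe read 5.91, 6.07, 6.49 and 6.07 on replicates 1 to 4, and Dixon's ratio was not taken for single probes. MRPS21 read 8.92 on replicate 3 and 8.43 to 8.48 on the others. MRPS24 read 8.62 on replicate 3 and 8.35 to 8.38 on the others. MRPL17 read 5.95 on replicate 4, below the 6.10 to 6.13 of the others. The other two were not detected on all 4 arrays and had lost their bright spot on replicate 3: MRPL30 read -6.60 there against 0.32 to 1.52, and MRPS18C -1.51 against 1.79 to 2.19. With outlying spots kept these genes read -0.41 and 2.51 on replicate 3.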

How the results depend on the processing

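Dim second probes limit the gene medians that include them. Detected MRPL genes numbered 46 or 47 and detected MRPS genes 27 to 29 under every detection rule and with each array left out. Normexp with quantile normalization lowered the median SD to 0.0907 (MRPL) and 0.0839 (MRPS), the members over 1.4-fold to 5 (MRPL2, MRPL38, MRPL46, MRPS16 and MRPS23), the SD of the list means to 0.0151 and 0.0194, the spread of MRPL minus MRPS to 0.0104 and the members highest on replicate 3 to 27. It left 5 members with 1 array apart, none of which were among the 5 of the array-median scaling. The processed signal gave 9 members over 1.4-fold, 2 with 1 array apart (MRPL19 and MRPL37), an SD of the MRPS list mean of 0.0588 and a spread of 0.0321. The spread was 0.0204 with probes well above background alone and 0.0573 with outlying spots kept. Leaving out each array in turn, the median SD ranged from 0.0766 to 0.156 (MRPL) and 0.0764 to 0.176 (MRPS), the members over 1.4-fold from 1 to 14, the SD of the list mean from 0.0414 to 0.131 (MRPL) and 0.0692 to 0.119 (MRPS), and the spread from 0.0481 to 0.0685. The cause of these changes was not tested. No paired analysis was possible because only 1 group has arrays here.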
